A study of Homo sapiens with 45 samples.

Results

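The genes described here encode 48 proteins that build ribosomes, taken by symbol from the 57351 distinct symbols of a count table of 45 RNA-seq libraries. The 48 symbols were given as a list, all 48 were found, and all 48 were tested in every comparison. By role they fell into 6 genes of the polymerase I machinery, 6 proteins of small nucleolar ribonucleoproteins (snoRNPs), 5 nucleolar scaffolds and chaperones, 14 assembly factors of the small ribosomal subunit and 17 of the large subunit. The libraries came from 3 estrogen receptor-positive breast cancer cell lines. HCC1428 derives from invasive ductal carcinoma, while MDA-MB-330 (called MM330) and MDA-MB-134-VI (called MM134) derive from invasive lobular carcinoma. All cells in all groups were kept in charcoal-stripped serum, which lacks steroid hormones, for 3 days and then received a small interfering RNA (siRNA). At 24 h after transfection, vehicle or hormone was added, and RNA was taken 24 h later. Each line had 5 groups of 3 libraries. The siNT group had a non-targeting siRNA and 0.01% ethanol, and the siNT_E2 group had that siRNA with estradiol (E2), the main natural estrogen, at 100 pM. The siER_E2, siFOXA1_E2 and siMDC1_E2 groups had the same dose of E2 with an siRNA against ESR1 (the estrogen receptor gene), against FOXA1 (a pioneer factor that opens chromatin for the receptor) or against MDC1 (a scaffold of the DNA damage response, which the study's title names as a partner of the receptor). No knockdown was made without E2. Ductal carcinoma was represented by 1 line, so line and tumour type cannot be told apart. Nothing in the labels ties the 3 libraries of a group to independent cultures, and p-values therefore measure only the spread between libraries, which may be technical.

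Ribosome production starts in the nucleolus, where RNA polymerase I, placed on the ribosomal DNA by UBTF and activated by RRN3, copies a long precursor of the ribosomal RNAs. snoRNPs then guide chemical changes along the precursor, the box C/D type with FBL as methyltransferase and NOP56 and NOP58 as core proteins, and the H/ACA type with DKC1 as pseudouridine synthase. The small subunit processome, built around the U3 snoRNP and UTP proteins, cuts and folds the part that becomes the small subunit, and a separate series of helicases, GTPases and scaffolds such as the PES1, BOP1 and WDR12 complex matures the large subunit. The transcription factor MYC is known to bind E-box motifs near the start of many of these genes, and MYC itself is a known target of the estrogen receptor in breast cancer cells.

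Libraries held 21 to 36.7 M counts. Targeted genes fell in every library of their knockdown group compared with siNT_E2. ESR1 was left at 49.9% in HCC1428, 11.5% in MM134 and 7.8% in MM330, FOXA1 at 25.5 to 32% and MDC1 at 20.4 to 26.1%. In MM134 the other knockdowns also lowered ESR1, from 533 ± 9.14 CPM (counts scaled to library size, mean ± SD, n = 3) in siNT_E2 to 108 ± 3.22 in siFOXA1_E2 and 121 ± 1.01 in siMDC1_E2, where siER_E2 had 60.2 ± 3.73. In MM330 the corresponding ESR1 levels were 284 ± 13.4, 208 ± 5.18, 147 ± 2.30 and 22.2 ± 3.82 CPM, and in HCC1428 426 ± 4.85, 392 ± 1.72, 394 ± 14.0 and 217 ± 7.41 CPM. Luminal epithelial markers summed to 6713 to 20130 CPM, immune markers to at most 1.12 CPM and endothelial markers to at most 11.1 CPM. Fibroblast markers summed to 43.8 to 83.0 CPM in HCC1428, 71.5 to 117 CPM in MM134 and 20.8 to 38.4 CPM in MM330. Of these 6 markers, 5 were below 1 CPM in every group. In 11 libraries 0.386 to 0.553% of counts lay at processed pseudogenes, against 0.162 to 0.208% in the other 34. These 11 included 2 siNT and 2 siER_E2 libraries of HCC1428. Values without them are given for only some of the results that changed. A result with no such value therefore need not have held without them.

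Without hormone the members differed widely in level among themselves. Per kilobase of exon, NPM1 and NCL, both abundant nucleolar RNA-binding proteins, were the highest members in siNT of each line. NCL had 95.1 CPM per kb in HCC1428, 104 in MM134 and 82.7 in MM330, and NPM1 had 89.1, 120 and 173 CPM per kb. The lowest member in each line was NOP2, an rRNA methyltransferase, at 0.169 to 0.575 CPM per kb. NPM1 has 45 annotated pseudogenes named after it, so its level depends on how reads with several matches were counted. NOP2 shares its strand with an annotated neighbour, AC006064.6, so its level also depends on how overlapping reads were counted.

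Differences between lines in siNT went both ways. MM134 was higher than HCC1428 for 19 members (39.6%) and lower for 17 (35.4%), with a median log2 difference of 0.02. These shares were near those of all genes tested, 35.7% and 39.9% (edgeR quasi-likelihood test, adjusted p below 0.05). MM330 was higher than HCC1428 for 13 (27.1%, against 35.2% of all genes) and lower for 25 (52.1%, against 37.7%). MM134 was higher than MM330 for 24 (50%, against 35.5%) and lower for 18 (37.5%, against 36.9%). BOP1, a scaffold of large subunit assembly, had 13.2, 11.2 and 13.7 CPM in the HCC1428 libraries, 59.8, 55.5 and 54.6 CPM in MM134 and 56.8, 57.0 and 55.8 CPM in MM330. Both lobular lines were above HCC1428 in every library, by 2.16 on the log2 scale in each (SE 0.05). NOP56 showed the same order, with 20.6, 23.4 and 20.4 CPM in HCC1428, 87.6, 87.9 and 91.5 CPM in MM134 and 121, 119 and 125 CPM in MM330. FBL stood apart in MM134, at 128, 118 and 119 CPM against 36.5, 34.9 and 40.7 CPM in HCC1428 and 33.8, 33.2 and 32.1 CPM in MM330. GNL3 (nucleostemin), a nucleolar GTPase, stood apart in MM330 at 99.6, 95.6 and 96.8 CPM, with MM134 lower by 1.62 ± 0.06 on the log2 scale (SE, adjusted p = 4.8e-27 by edgeR).

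Because many members moved together, their promoters were read for known motifs. RefSeq promoters (250 bases before to 50 bases after the start, GRCh38.p14) were found for 41 of the 48. The E-box CACGTG, the MYC-binding motif (the same on both strands), lay in 17 of the 41, or 41.5%, against 2030 of all 27305 promoters of that length, or 7.43%. Of genes tested in a line that had a promoter in the table, 10.03 to 10.16% held one. The E-boxes sat at the start: in 16 of the 17 genes at least 1 began between 16 bases before and 36 bases after it, and 12 of these began after it. By role, an E-box was found in 8 of 13 small subunit factors, 6 of 14 large subunit factors, 2 of 4 snoRNP proteins, 1 of 5 nucleolar scaffolds and 0 of 5 polymerase I genes. The full estrogen response element (GGTCA, any 3 bases, TGACC) was in 0 of the 41 and in 0.07% of all promoters, its single arm GGTCA (either strand) in 26.8% against 37.75%, and the forkhead motif TGTTTAC (either strand) in 1, or 2.4%, against 3.41%. A match describes letters in a window and shows no binding. The 3 members with an upstream E-box closest to the start are shown with the 100 bases before the start, 5′ to 3′ on the gene's strand, the E-box in capitals. They are UTP20 at chr12:101280005-101280104, NAT10 at chr11:34105529-34105628 and UTP4 at chr16:69132549-69132648, all on the plus strand.
UTP20: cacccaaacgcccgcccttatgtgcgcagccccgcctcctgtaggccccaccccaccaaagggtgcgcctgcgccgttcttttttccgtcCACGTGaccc
NAT10: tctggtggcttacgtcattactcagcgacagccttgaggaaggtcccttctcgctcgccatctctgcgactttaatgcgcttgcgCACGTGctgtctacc
UTP4: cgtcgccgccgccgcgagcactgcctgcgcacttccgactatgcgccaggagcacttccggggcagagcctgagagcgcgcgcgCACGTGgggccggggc

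For 10 more members with an E-box at the start, from 4 roles, the motif is shown with 10 bases on each side to let the flanks be compared. FBL and RRP9 are snoRNP proteins, MYBBP1A is a nucleolar scaffold, NOP14, WDR43 and PNO1 build the small subunit, and PES1, GNL2, NOC3L and MRTO4 the large one.
FBL: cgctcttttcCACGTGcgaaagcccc
RRP9: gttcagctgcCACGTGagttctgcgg
MYBBP1A: ggccggagcaCACGTGtttcgtgttt
NOP14: cgcggcccggCACGTGtcttagggta
WDR43: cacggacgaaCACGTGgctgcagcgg
PNO1: tgcagctgcgCACGTGtttcagccgg
PES1: cttggcagggCACGTGcgggaggaag
GNL2: acgtcgtgcaCACGTGgtccggcgtg
NOC3L: gggacttcggCACGTGtgtcattccc
MRTO4: tcttccgccgCACGTGgattcagcgc

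Estradiol raised all 48 members in MM134. In that line 27.2% of all genes tested were called higher, and the median log2 change of the members was 0.69. Every siNT_E2 library was above every siNT library for all 48, where this held for 30.9% of all genes, and 0 members had the opposite order (29.4%). In HCC1428, 36 members rose (29.1% of all genes) and 2 fell (25.7%), with a median log2 change of 0.28. The 2 groups of HCC1428 did not overlap for 35 members that were higher (29.7%) and 2 that were lower (29.6%). In MM330, 5 of the 48 rose and 1 fell, both shares below those of all genes (13.7% and 12.6%), with a median of 0.05. The smallest rise in MM134 was that of RRN3 and the largest that of BOP1, as the plot of E2 effects by role shows. RNA was taken from whole cultures, so a change in RNA per cell cannot be told apart from a change in the share of cells that express a gene. Summed over the 48 members, the level went from 3595 ± 97.3 to 5801 ± 43.5 CPM in MM134, from 3437 ± 108 to 4317 ± 52.8 CPM in HCC1428 and from 3494 ± 124 to 3537 ± 97.4 CPM in MM330 (mean ± SD, n = 3).

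**Figure D1:**
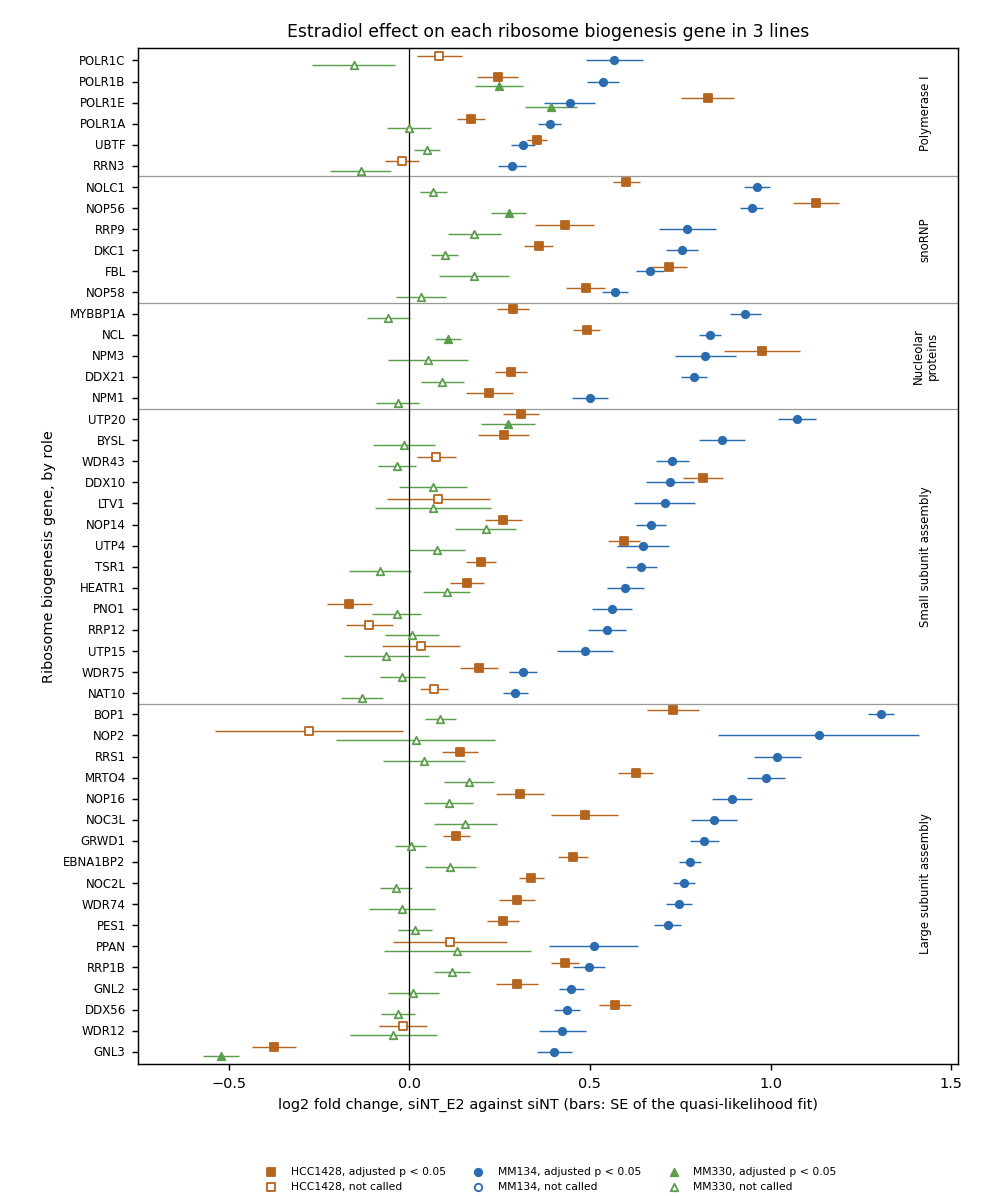
Log2 change of each of the 48 members with estradiol (siNT_E2 against siNT) in HCC1428, MM134 and MM330, grouped by role, with bars of 1 standard error from the edgeR fit and filled points for adjusted p below 0.05. All 48 points of MM134 lie between 0.28 and 1.31, while those of MM330 lie between -0.52 and 0.39.

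In the polymerase I machinery, all 6 genes rose in MM134 (27.2% of all genes), by 0.28 to 0.57 on the log2 scale. POLR1B, the second largest subunit, had 31.0, 31.1 and 29.6 CPM in siNT and 44.6, 46.9 and 42.5 CPM in siNT_E2 of MM134, a change of 0.54 ± 0.05 (SE, adjusted p = 1.1e-09 by edgeR). RRN3, which carries the signal to start transcription, had 52.5, 50.9 and 48.8 CPM in siNT and 61.3, 64.5 and 61.2 CPM in siNT_E2, without overlap, a change of 0.28 ± 0.04 (adjusted p = 1.7e-06 by edgeR). In HCC1428, RRN3 had 55.6, 54.2 and 53.4 CPM without and 51.8, 52.3 and 55.0 CPM with E2, and these ranges overlapped. UBTF, the factor that marks ribosomal DNA for transcription, had 224, 222 and 221 CPM in siNT and 280, 283 and 279 CPM in siNT_E2 of HCC1428, and 315, 305 and 323 CPM against 318, 323 and 322 CPM in MM330. It rose by 0.35 ± 0.03 in HCC1428 and 0.31 ± 0.03 in MM134, and the change of 0.05 ± 0.04 in MM330 did not pass (adjusted p = 0.39 by edgeR). POLR1E, a subunit that helps polymerase I bind DNA, was the member with the largest rise in MM330, at 0.39 ± 0.07, and had 0.83 ± 0.07 in HCC1428 and 0.44 ± 0.07 in MM134. Its change was smaller in MM134 than in HCC1428 by 0.36 (difference -0.36 ± 0.11, adjusted p = 0.01 by edgeR over all 45 libraries), the 1 member for which a smaller change in MM134 passed the test. The difference did not pass without siNT replicate 1 (adjusted p = 0.08) or siNT_E2 replicate 3 (0.061) of MM134, or without the libraries of higher pseudogene share (0.088).

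All 6 snoRNP proteins rose in both MM134 and HCC1428 (27.2% and 29.1% of all genes). NOP56 had 170, 172 and 176 CPM with E2 in MM134, where siNT had 87.6, 87.9 and 91.5 CPM. In HCC1428 it had 20.6, 23.4 and 20.4 CPM in siNT and 46.2, 46.9 and 45.9 CPM in siNT_E2, a change of 1.13 ± 0.06 that was the largest of any member there. In MM330 it had 121, 119 and 125 CPM in siNT and 141, 151 and 144 CPM in siNT_E2, a change of 0.27 ± 0.05 (adjusted p = 0.00043 by edgeR). The E2 libraries of NOP56 were thus above the siNT libraries in each line. FBL went from 36.5, 34.9 and 40.7 CPM to 61.2, 62.7 and 58.8 CPM in HCC1428 and from 128, 118 and 119 CPM to 200, 194 and 191 CPM in MM134. In MM330 it had 33.8, 33.2 and 32.1 CPM against 35.8, 36.2 and 38.9 CPM, and the change of 0.18 ± 0.10 did not pass. NOLC1, a chaperone that accompanies snoRNPs in the nucleolus, rose by 0.96 ± 0.04 in MM134 and 0.60 ± 0.04 in HCC1428. DKC1 rose by 0.76 ± 0.04 and 0.36 ± 0.04 in the same lines.

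The 5 nucleolar scaffolds and chaperones rose in MM134 and HCC1428 as well (27.2% and 29.1% of all genes). However, NPM1 did not pass in HCC1428 without siNT_E2 replicate 3 (adjusted p = 0.064 by edgeR) or replicate 4 (0.1). NCL went from 747, 696 and 710 CPM to 1287, 1296 and 1278 CPM in MM134 and from 635, 636 and 705 CPM to 935, 921 and 891 CPM in HCC1428. In MM330 it had 592, 559 and 568 CPM without and 607, 595 and 625 CPM with E2, a rise of 0.11 ± 0.04 (adjusted p = 0.035 by edgeR). NPM3, a histone-binding relative of NPM1, went from 7.98, 7.22 and 8.70 CPM to 15.7, 15.4 and 15.4 CPM in HCC1428, a change of 0.98 ± 0.10, and had 11.5, 9.26 and 9.75 CPM against 11.01, 10.6 and 9.59 CPM in MM330. MYBBP1A, a repressor of polymerase I that also binds MYB, had 0.93 ± 0.04 in MM134, the largest change of this group, and 0.29 ± 0.04 in HCC1428. DDX21, an RNA helicase, had 0.79 ± 0.04 in MM134 and 0.28 ± 0.04 in HCC1428.

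Of the 14 small subunit factors, 14 rose in MM134 (27.2% of all genes), and 8 rose and 1 fell in HCC1428 (29.1% and 25.7%). In MM330, 1 rose (13.7% of all genes). UTP20, a large scaffold of the processome, had 47.3, 45.7 and 42.6 CPM in siNT and 96.9, 97.7 and 93.1 CPM in siNT_E2 of MM134, a change of 1.07 ± 0.05 (adjusted p = 1e-13 by edgeR). Its E2 libraries were also above siNT in HCC1428 (64.1, 72.9 and 72.7 against 56.7, 57.5 and 56.8 CPM) and in MM330 (61.0, 59.9 and 68.5 against 54.0, 55.4 and 48.9 CPM). HEATR1, another large processome scaffold, rose by 0.60 ± 0.05 in MM134, and BYSL, needed late in small subunit assembly, by 0.87 ± 0.06. DDX10, a helicase that works with U3, rose by 0.81 ± 0.05 in HCC1428 and 0.72 ± 0.07 in MM134. RRP12, which helps export the subunits, went from 49.4, 41.2 and 46.8 CPM to 68.5, 67.8 and 65.3 CPM in MM134. In HCC1428 it had 50.4, 49.3 and 52.7 CPM in siNT and 43.8, 46.2 and 49.5 CPM in siNT_E2, ranges that overlapped, and the change of -0.11 ± 0.07 did not pass. PNO1, a late assembly factor that guards the end of the small subunit RNA, rose by 0.56 ± 0.06 in MM134 and fell by 0.17 in HCC1428 (SE 0.06, adjusted p = 0.03 by edgeR). That fall did not pass without siNT replicate 1 or without siNT replicate 3 (adjusted p = 0.07 each).

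Of the 17 large subunit factors, 17 rose in MM134 (27.2% of all genes), and 13 rose and 1 fell in HCC1428 (29.1% and 25.7%). In MM330, 0 rose and 1 fell (13.7% and 12.6% of all genes). BOP1 went from 59.8, 55.5 and 54.6 CPM to 141, 141 and 140 CPM in MM134, a change of 1.31 ± 0.04 (adjusted p = 5.8e-18 by edgeR). In HCC1428 it went from 13.2, 11.2 and 13.7 CPM to 21.2, 20.3 and 20.97 CPM, and in MM330 it had 56.8, 57.0 and 55.8 CPM against 58.0, 59.6 and 60.2 CPM. Its partners PES1 and WDR12 changed less in MM134, by 0.72 ± 0.04 and 0.42 ± 0.06. RRS1, which brings the 5S RNA into the large subunit, went from 22.9, 20.7 and 19.8 CPM to 41.1, 44.5 and 44.3 CPM in MM134. MRTO4, a nucleolar relative of a ribosomal stalk protein, rose by 0.99 ± 0.05 in MM134 and 0.63 ± 0.05 in HCC1428. NOP2 rose by 1.13 ± 0.28 in MM134 on low levels (0.745, 0.522 and 1.103 CPM against 1.35, 1.91 and 1.94 CPM).

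GNL3 moved in opposite directions between lines. In MM134 it rose from 32.4, 32.8 and 29.5 CPM to 42.9, 41.7 and 41.4 CPM with E2, while in HCC1428 it went from 52.0, 44.99 and 50.7 CPM to 37.4, 39.0 and 36.5 CPM, and in MM330 from 99.6, 95.6 and 96.8 CPM to 63.7, 67.6 and 69.7 CPM. The siNT and siNT_E2 libraries did not overlap in any of the 3 lines. Changes on the log2 scale were 0.40 ± 0.05 in MM134, -0.37 ± 0.06 in HCC1428 and -0.52 ± 0.05 in MM330 (adjusted p 2.5e-07, 2.8e-05 and 7e-07 by edgeR). The MM134 change exceeded that of HCC1428 by 0.80 ± 0.08 and that of MM330 by 0.95 ± 0.08 (adjusted p 6.4e-11 and 7.6e-13 by edgeR), whereas MM330 and HCC1428 differed by -0.15 ± 0.08 (adjusted p = 0.16). GNL3 hosts 5 annotated snoRNA genes and overlaps PBRM1 and GLT8D1 on the opposite strand, and the strand setting of the authors' counting is not given in the sources used here.

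**Figure D2:**
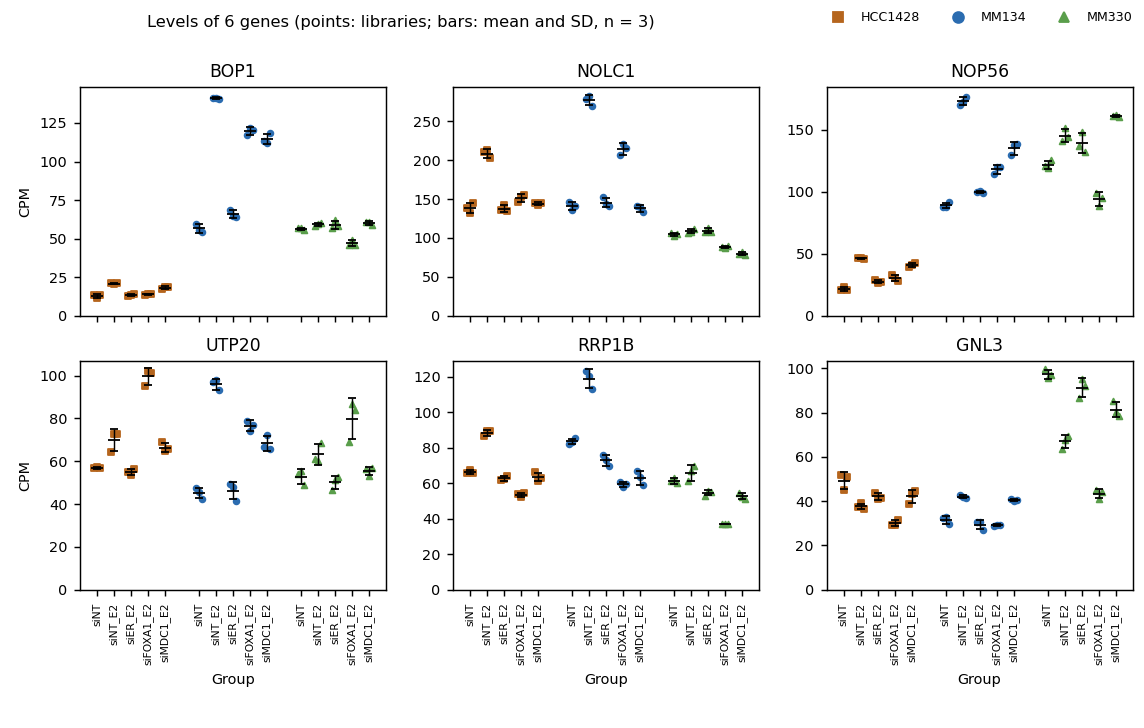
CPM of BOP1, NOLC1, NOP56, UTP20, RRP1B and GNL3 in each library, by line and group, with bars for the mean and SD of the 3 libraries. GNL3 was lower with E2 than in siNT in HCC1428 and MM330 and higher in MM134, and RRP1B had its lowest mean in siFOXA1_E2 in each line.

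The E2 effect itself was compared between lines in a fit of all 45 libraries. It was larger in MM134 than in HCC1428 for 35 members and smaller for 1 (12.2% and 14.3% of all genes), larger in MM134 than in MM330 for 46 and smaller for 0 (13.9% and 12.3%), and smaller in MM330 than in HCC1428 for 27 and larger for 0 (16.5% and 11.8%). Median differences on the log2 scale were 0.42, 0.69 and -0.25. For 41 of the 48 members the largest E2 change was in MM134, and the share over all genes was not computed for this count. BOP1 differed by 1.25 ± 0.06 between MM134 and MM330, and NPM3 by -0.93 ± 0.16 and NOP56 by -0.85 ± 0.07 between MM330 and HCC1428. Members called higher with E2 in all 3 lines were POLR1B, POLR1E, NOP56, NCL and UTP20. These 5 of 48 were a share close to the 8.36% of 14933 genes tested in all lines. Another 31 were called higher in 2 lines and 12 in 1, and the share over all genes was not computed for these 2 counts. Of the 5 members called in all 3 lines, 3 rested on single libraries in MM330. Without siNT replicate 3 of MM330, adjusted p was 0.06 for POLR1B, 0.074 for UTP20 and 0.14 for NCL, and the members called there fell from 6 to 3. Without siNT_E2 replicate 3 it was 0.071 for UTP20 and 0.12 for NCL, and NCL also missed without siNT replicate 2 (0.091) and without siNT_E2 replicate 1 (0.12).

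Proliferation markers moved with E2 in another order. Summed over 12 genes of DNA replication and mitosis, they went from 482 ± 5.78 to 2471 ± 83.3 CPM in HCC1428, from 3078 ± 97.9 to 3620 ± 35.0 CPM in MM134 and from 1078 ± 16.5 to 1638 ± 116 CPM in MM330. All 12 were called higher in HCC1428 (29.1% of all genes), 7 in MM134 with 1 lower (27.2% each way), and 9 in MM330 (13.7%). Under knockdown the sums in siER_E2, siFOXA1_E2 and siMDC1_E2 were 912, 862 and 1698 CPM in HCC1428, 2611, 2467 and 3129 CPM in MM134 and 1232, 700 and 1893 CPM in MM330. The mitochondrial share of counts in HCC1428 was 15.96 to 18.69% in siNT and 11.7 to 14.3% in siNT_E2. The part of either in the members' levels was not tested.

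Knockdown of ESR1 under E2 lowered nearly the whole group in MM134. There 46 members fell and 0 rose compared with siNT_E2 (27.9% and 29.3% of all genes called lower and higher), with a median log2 change of -0.54. Every siER_E2 library was below every siNT_E2 library for all 48, where this held for 31.8% of all genes. The 46 members compare with 57.2% of all genes called in either direction in MM134. In HCC1428, 37 fell and 1 rose (28.7% and 22.5% of all genes, 51.2% in either direction), with a median of -0.28, and in MM330 9 fell and 6 rose (17.4% and 15.1%), with a median of 0.01. The fall was larger in MM134 than in HCC1428 for 28 members and smaller for 1 (12.1% and 12.4% of all genes), and larger in MM134 than in MM330 for 42 with 0 the other way (12.9% and 12.5%). MM330 against HCC1428 differed for 27 members, each with a less negative or more positive change in MM330 (13.0% of all genes), and 0 the other way (12.3%). ESR1 itself was left at 49.9% in HCC1428, so the depth of the knockdown differed between lines.

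Single members showed how far the level went back. In MM134, BOP1 had 68.6, 64.8 and 63.9 CPM in siER_E2, below the 140 to 141 CPM of siNT_E2 and above the 54.6 to 59.8 CPM of siNT. UTP20 had 49.4, 47.9 and 41.6 CPM, of which 2 lay above and 1 below the siNT range of 42.6 to 47.3 CPM. NCL had 772, 735 and 715 CPM against 1278 to 1296 CPM in siNT_E2. Falls from siNT_E2 were 1.08 for BOP1, 1.03 for UTP20 and 0.91 for NOLC1 on the log2 scale (changes -1.08 ± 0.04, -1.03 ± 0.05 and -0.91 ± 0.04). The 2 members that did not pass there were PNO1 (-0.07 ± 0.05, adjusted p = 0.27 by edgeR) and NOP2 (-0.58 ± 0.27, adjusted p = 0.07). POLR1E fell by 0.23 (SE 0.07), but not without siNT_E2 replicate 1 (adjusted p = 0.065) or replicate 2 (0.051). In HCC1428 the largest falls were those of DDX10 (-1.03 ± 0.06), POLR1E (-0.79 ± 0.07) and NPM3 (-0.79 ± 0.10). RRP12 rose by 0.16 ± 0.06 there (adjusted p = 0.044 by edgeR), with 51.3, 57.9 and 50.7 CPM against 43.8, 46.2 and 49.5 CPM, and this did not pass without siER_E2 replicate 2 (adjusted p = 0.26) or siNT_E2 replicate 2 (0.19).

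In MM330 the members that moved with ESR1 knockdown went both ways. GNL3 rose from 63.7, 67.6 and 69.7 CPM to 86.8, 95.3 and 92.0 CPM, a change of 0.45 ± 0.05 (adjusted p = 3.2e-06 by edgeR), and DDX56, a helicase of large subunit assembly, rose by 0.32 ± 0.05. POLR1C, a subunit shared by polymerases I and III, rose by 0.38 ± 0.11, but not without siNT_E2 replicate 1 (adjusted p = 0.056) or 3 (0.065), or siER_E2 replicate 3 (0.099). Among the 9 that fell were UTP20 (-0.33 ± 0.08), RRP9, the protein that marks the U3 snoRNP (-0.27 ± 0.07), and DDX21 (-0.27 ± 0.06). FBL fell by 0.30 (SE 0.10), but not without siER_E2 replicate 1 (adjusted p = 0.055), siER_E2 replicate 3 (0.11) or siNT_E2 replicate 3 (0.089). Counted over lines, 9 members fell in all 3 (10.3% of genes tested in all lines), POLR1B, POLR1E, FBL, RRP9, NCL, DDX21, UTP20, RRP1B and NOC3L. Of these, NCL, NOC3L and POLR1B also lost the call in MM330 when 1 library was left out. POLR1B did so without siER_E2 replicate 2 (adjusted p = 0.057). NCL did so without siER_E2 replicate 2 (0.069) or 3 (0.15) and without siNT_E2 replicate 1 or 3 (0.1 each), and NOC3L without siER_E2 replicate 1 (0.19) or 3 (0.1) and without siNT_E2 replicate 1 (0.09) or 2 (0.23). With the libraries of higher pseudogene share left out, 4 members were called higher and 3 lower in MM330, the latter being POLR1B, UTP20 and RRP1B.

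Knockdown of FOXA1 gave a more mixed picture, with a core of members that fell in each line. In MM134, 38 fell and 1 rose (28.5% and 27.9% of all genes, 56.3% in either direction), with a median of -0.28. In HCC1428, 22 fell and 6 rose (29.5% and 24.1%), with a median of -0.11, and the libraries did not overlap for 22 lower and 9 higher members (30.0% and 30.3%). In MM330, 20 fell and 5 rose (24.6% and 24.4%), with a median of -0.09. The 8 luminal markers, among them KRT18, TFF3 and XBP1, had their highest summed level in this group in each line, at 14840 to 15890 CPM in MM134, 15740 to 16280 in HCC1428 and 17220 to 20130 in MM330, against 11490 to 11610, 13360 to 13980 and 10250 to 11080 CPM in siNT_E2. They did not move one way: 5 rose and 3 fell in MM134, 3 and 5 in HCC1428 and 4 and 3 in MM330. Of these, 3 were chosen after their values were seen. KRT18, a keratin, rose by 1.26, 0.61 and 1.44 on the log2 scale in these lines, while TFF3, a secreted trefoil factor, changed by -2.76, -1.19 and -0.67 and XBP1, a transcription factor, by -1.61, -0.85 and -1.42. Their part in the members' changes was not tested. RRP1B, which recruits phosphatase 1 to the nucleolus, had 123, 120 and 113 CPM in siNT_E2 and 60.4, 58.1 and 59.3 CPM in siFOXA1_E2 of MM134, 86.5, 89.1 and 89.5 against 53.6, 51.9 and 54.3 CPM in HCC1428, and 61.0, 66.7 and 69.6 against 37, 37.2 and 36.8 CPM in MM330. The knockdown libraries were below siNT_E2, and also below siNT, in each line. Changes from siNT_E2 were -0.996 ± 0.044, -0.76 ± 0.04 and -0.83 ± 0.05 on the log2 scale.

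NAT10, an RNA acetyltransferase of small subunit assembly, fell by 0.86 in MM134, 0.49 in MM330 and 0.41 in HCC1428 (SE 0.03, 0.06 and 0.04). RRP12 had 37.7, 36.6 and 40.9 CPM in siFOXA1_E2 against 65.3 to 68.5 CPM in siNT_E2 of MM134, and 22.8, 18.3 and 19.5 against 36.2 to 38.2 CPM in MM330. In HCC1428 its 44.3, 45.6 and 46.5 CPM lay within the siNT_E2 range of 43.8 to 49.5 CPM, and the change was larger in MM134 and MM330 by 0.77 and 0.84 (differences -0.77 ± 0.09 and -0.84 ± 0.10, adjusted p 5.8e-09 and 5.9e-09 by edgeR). Members lower in all 3 lines numbered 15 (14.5% of genes tested in all lines), POLR1E, NOP56, NOLC1, NCL, DDX21, NOP14, NAT10, BOP1, NOP16, RRP1B, GNL2, GNL3, GRWD1, NOC2L and MRTO4. Of these, GNL2 and NOP14 did not pass in MM330 without siFOXA1_E2 replicate 2 (adjusted p 0.081 and 0.09) or siNT_E2 replicate 3 (0.065 and 0.091), and NOP14 also missed without siFOXA1_E2 replicate 3 (0.061) or siNT_E2 replicate 2 (0.089).

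UTP20 went against most members under FOXA1 knockdown in 2 lines. It had 95.0, 102 and 101 CPM in siFOXA1_E2 of HCC1428, above the 64.1 to 72.9 CPM of siNT_E2, and 69.0, 86.9 and 83.9 CPM in MM330, above 59.9 to 68.5 CPM, but 79.0, 74.1 and 76.8 CPM in MM134, below 93.1 to 97.7 CPM. Changes were 0.48 ± 0.05, 0.34 ± 0.07 and -0.32 ± 0.05, and MM134 differed from HCC1428 by -0.84 ± 0.09 and from MM330 by -0.67 ± 0.09 (adjusted p 8.9e-10 and 2e-07 by edgeR). The other members that rose in HCC1428 were RRS1 (0.42 ± 0.05), POLR1A (0.26 ± 0.04), MYBBP1A (0.25 ± 0.04), WDR12 (0.19 ± 0.07) and PES1 (0.11 ± 0.04), and in MM330 they were PPAN (0.72 ± 0.20), POLR1A (0.23 ± 0.06), MYBBP1A (0.23 ± 0.06) and UBTF (0.19 ± 0.04). The calls of WDR12 and PES1 were lost when siNT_E2 replicate 2 was left out (adjusted p 0.13 and 0.24) and when siFOXA1_E2 replicate 1 (0.065 and 0.073) or replicate 2 (0.092 and 0.1) was, and that of PES1 also without siFOXA1_E2 replicate 3 (0.089). PPAN shares exons with the read-through gene PPAN-P2RY11, so its level depends on how shared reads were counted. In MM134 the 1 member that rose was NOP58 (0.25 ± 0.03). Compared between lines, the FOXA1 effect was lower in MM134 than in HCC1428 for 20 members and higher for 2 (13.7% and 16.8% of all genes), lower in MM134 than in MM330 for 16 and higher for 0 (13.8% and 15.3%), and higher in MM330 than in HCC1428 for 5 and lower for 6 (11.8% and 10.4%).

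Knockdown of MDC1 lowered 38 members in MM134 and raised 0 (25.0% and 25.4% of all genes), with a median of -0.28. In HCC1428, 15 fell and 1 rose (15.9% and 13.2%), with a median of -0.05, and in MM330 7 fell and 6 rose (10.4% each way), with a median of 0.06. The effect was lower in MM134 than in HCC1428 for 22 members and higher for 0 (7.69% and 10.9% of all genes), and lower in MM134 than in MM330 for 33 and higher for 0 (9.71% and 11.1%). MM330 was above HCC1428 for 10 and below for 1 (7.48% and 6.28%), a count of 11 that fell to between 4 and 8 when single libraries were left out and was lowest without siMDC1_E2 replicate 1 of MM330. Beside this, ESR1 fell with MDC1 knockdown to 121 CPM in MM134 and 147 CPM in MM330 and stood at 394 CPM in HCC1428, and the part of ESR1 in these changes was not tested.

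A few members fell further with MDC1 knockdown than the rest. NOLC1 had 141, 140 and 133 CPM in siMDC1_E2 of MM134, at the siNT level of 137 to 146 CPM and below the 270 to 283 CPM of siNT_E2. It had 145, 142 and 145 CPM against 202 to 213 CPM in HCC1428, and 79.7, 82.5 and 77.9 CPM against 107 to 111 CPM in MM330. Changes were -1.02 ± 0.04, -0.54 ± 0.04 and -0.44 ± 0.04. In MM330, NOLC1 in siMDC1_E2 was also below every siNT library (103 to 106 CPM), by -0.38 ± 0.04 (adjusted p = 4.7e-07 by edgeR).

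POLR1B had 25.0, 24.4 and 26.0 CPM in siMDC1_E2 of MM134, below both siNT_E2 (42.5 to 46.9 CPM) and siNT (29.6 to 31.1 CPM). It was also below both groups in HCC1428 (30.0, 29.5 and 28.2 CPM) and in MM330 (21.4, 19.2 and 20.9 CPM). Changes from siNT_E2 were -0.84 ± 0.05, -0.41 ± 0.06 and -0.49 ± 0.07, larger in MM134 than in HCC1428 by 0.43 (difference -0.43 ± 0.08, adjusted p = 4.4e-05 by edgeR). DDX21 went to 122, 120 and 117 CPM from 199 to 200 CPM in MM134, and to 47.7, 48.8 and 45.4 CPM from 68.1 to 77.2 CPM in MM330, where siNT had 67.2 to 73.8 CPM. RRP1B fell by 0.93, 0.49 and 0.33 in MM134, HCC1428 and MM330 (SE 0.04, 0.04 and 0.05).

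Members lower in all 3 lines with MDC1 knockdown numbered 7 (4.29% of genes tested in all lines), POLR1B, NOLC1, DDX21, RRP1B, DDX10, PNO1 and EBNA1BP2. The last 3 rested on single libraries in MM330. Without siNT_E2 replicate 3 of MM330, adjusted p was 0.097 for DDX10, 0.067 for EBNA1BP2 and 0.07 for PNO1, and without siMDC1_E2 replicate 3 it was 0.084 for DDX10 and 0.065 for EBNA1BP2. DDX10 also missed without siMDC1_E2 replicate 2 (0.067) and PNO1 without siMDC1_E2 replicate 1 (0.05). In HCC1428, PNO1 missed without siMDC1_E2 replicate 2 (0.072) or 3 (0.24) and without siNT_E2 replicate 2 (0.17) or 4 (0.11). In MM330, TSR1, a late small subunit factor (0.31 ± 0.09), DDX56 (0.30 ± 0.05), NOP58 (0.29 ± 0.07), GNL3 (0.27 ± 0.05), WDR74 (0.27 ± 0.09) and DKC1 (0.23 ± 0.04) rose. WDR74 missed without siMDC1_E2 replicate 1 (adjusted p = 0.17), 2 (0.059) or 3 (0.11) and without siNT_E2 replicate 1 (0.11) or 3 (0.19), and TSR1 missed without siNT_E2 replicate 2 (0.062). With the libraries of higher pseudogene share left out, 8 members were called in MM330, 4 each way. POLR1A was the 1 member that rose in HCC1428 (0.13 ± 0.04), and not without siMDC1_E2 replicate 1 (adjusted p = 0.053) or siNT_E2 replicate 2 (0.084).

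**Figure D3:**
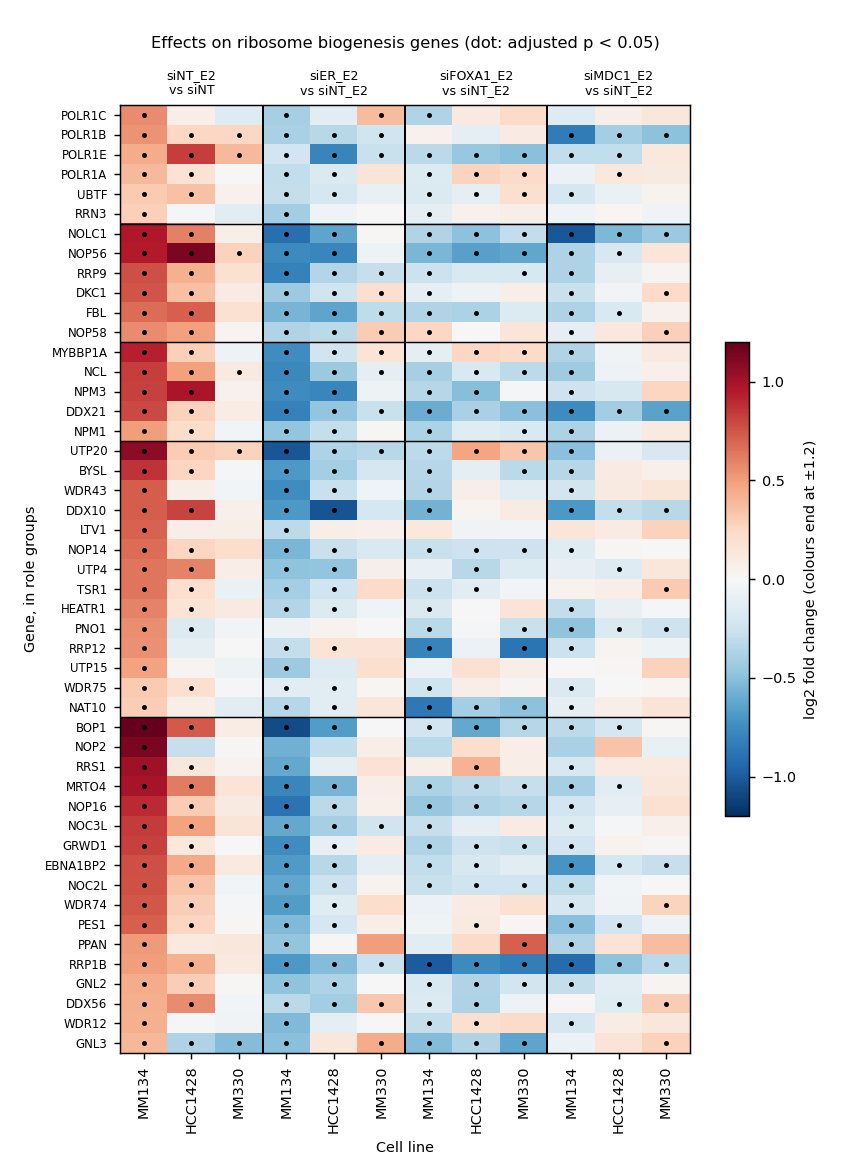
Log2 changes of the 48 members, ordered by role, in the 12 comparisons within lines (E2 against siNT, and each knockdown against siNT_E2), with a dot where adjusted p was below 0.05 by edgeR. The E2 column of MM134 is positive for all 48 members and its siER column negative for all 48, while the MM330 columns hold both signs.

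The knockdown groups were also set against the hormone-free siNT libraries. As no knockdown was made without E2, a rise kept from E2 cannot be told apart from an effect of the targeting siRNA. In MM134, group means lay between siNT and siNT_E2 for 38 of 48 members in siER_E2, 40 in siFOXA1_E2 and 41 in siMDC1_E2. In HCC1428 these counts were 28, 24 and 28, and in MM330 11, 6 and 7. The share of all genes with such a position was not computed. With ESR1 knockdown in MM134, 23 members were above siNT and 2 were below (17.2% and 15.2% of all genes), with a median of 0.11. With FOXA1 knockdown 40 were above and 4 below (28.9% and 27.9%), with a median of 0.42. With MDC1 knockdown 38 were above and 2 below (26.0% and 23.2%), with a median of 0.41. BOP1 had 117, 122 and 121 CPM in siFOXA1_E2 and 114, 112 and 119 CPM in siMDC1_E2, 1.08 ± 0.04 and 0.99 ± 0.04 above siNT on the log2 scale. Members below siNT with FOXA1 knockdown were NAT10 (-0.57 ± 0.04), RRP1B (-0.50 ± 0.05), RRP12 (-0.25 ± 0.06) and GNL3 (-0.12 ± 0.05), and with MDC1 knockdown RRP1B (-0.43 ± 0.05) and POLR1B (-0.31 ± 0.05). GNL3 missed when any 1 siFOXA1_E2 library was left out (adjusted p 0.07 to 0.083) and without siNT replicate 1 (0.12) or 2 (0.14).

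In HCC1428, 7 members were above and 4 below siNT with ESR1 knockdown (11.7% and 9.50% of all genes), a count of 11 that fell to between 6 and 9 when single libraries were left out. With FOXA1 knockdown 28 were above and 7 below (25.1% and 23.4%), DDX10 the most (0.85 ± 0.05), and with MDC1 knockdown 31 and 4 (26.2% and 22.2%), NOP56 the most (0.93 ± 0.06). In MM330 the counts were 6 above and 2 below with ESR1 knockdown (8.66% and 11.5%), 10 and 17 with FOXA1 knockdown (23.1% and 23.8%) and 13 and 7 with MDC1 knockdown (17.9% and 17.1%). The count of 8 with ESR1 knockdown fell to between 4 and 6 without single libraries. GNL3 was the lowest with FOXA1 knockdown in MM330, at 45.03, 41.0 and 44.0 CPM, or -1.15 ± 0.05 against siNT.

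Knockdowns were also compared with each other. In MM134, 37 members were higher and 5 lower in siFOXA1_E2 than in siER_E2 (25.8% and 25.4% of all genes), 32 were higher and 4 lower in siMDC1_E2 than in siER_E2 (24.1% and 21.5%), and 12 were higher and 15 lower in siMDC1_E2 than in siFOXA1_E2 (25.3% and 24.4%). The last pair differed most at POLR1B (-0.89 ± 0.05) and NOLC1 (-0.65 ± 0.04), lower with MDC1 knockdown, and at NAT10 (0.75 ± 0.03) and RRP12 (0.55 ± 0.05), lower with FOXA1 knockdown. In HCC1428 the corresponding counts were 28 and 5 (21.3% and 21.6%), 33 and 1 (23.7% and 17.4%) and 18 and 8 (25.6% and 19.7%). In MM330 they were 6 and 21 (23.1% and 22.9%), 10 and 7 (16.9% and 13.7%) and 22 and 6 (24.3% and 24.5%). In MM330 the FOXA1 and MDC1 groups differed most at GNL3 (0.90 ± 0.05), RRP12 (0.82 ± 0.08) and NOP56 (0.77 ± 0.05), all higher with MDC1 knockdown.

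MYC changed with E2 in MM134 and MM330, while the members moved mainly in MM134 and HCC1428. In MM134 it had 18.1, 14.6 and 13.2 CPM in siNT and 101, 98.9 and 98.2 CPM in siNT_E2, a change of 2.69 ± 0.06 on the log2 scale (adjusted p = 5.4e-19 by edgeR). In MM330 it had 0.416, 0.481 and 0.531 CPM (11 to 17 counts a library) without and 21.5, 19.2 and 21.9 CPM with E2, a change of 5.46 ± 0.19 (adjusted p = 1.6e-12), while the median member changed by 0.05. In HCC1428 it had 59.0, 54.4 and 55.1 CPM without and 56.4, 60.0 and 52.8 CPM with E2, overlapping ranges and a change of 0.02 ± 0.05 (adjusted p = 0.78), while 36 members rose. ESR1 knockdown lowered MYC in each line, by 0.55 in HCC1428, 2.45 in MM134 and 6.12 in MM330 (SE 0.05, 0.06 and 0.20), the last from 4 to 14 counts a library. The MYC response to E2 differed between MM134 and HCC1428 by 2.69 ± 0.11, between MM330 and HCC1428 by 5.44 ± 0.18 and between MM134 and MM330 by -2.75 ± 0.21 (adjusted p 5e-23, 2.5e-25 and 8.1e-14 by edgeR).

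**Figure D4:**
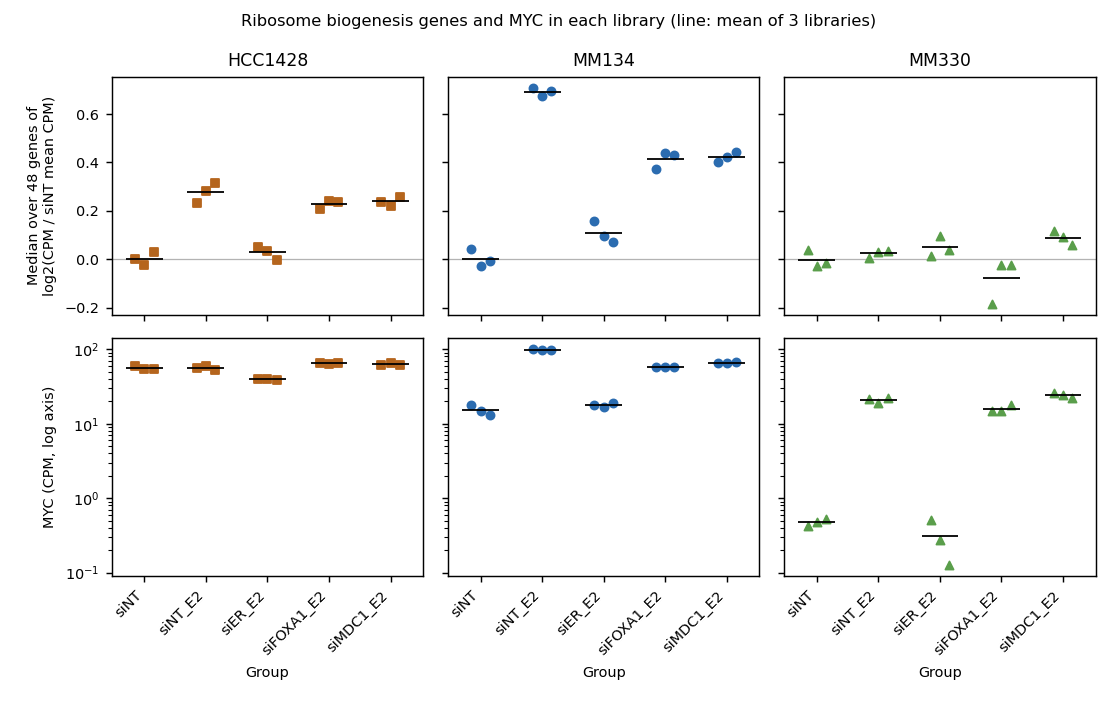
Upper panels show the median over the 48 members of log2 CPM relative to the siNT mean of the same line, and lower panels show MYC in CPM on a log axis, for each of the 45 libraries by group, with a line at the mean of 3 libraries. MM134 libraries spread from -0.03 to 0.71 in the members as MYC ran from 13.2 to 101 CPM, and MM330 libraries stayed between -0.18 and 0.12 as MYC ran from 0.127 to 25.8 CPM.

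Group by group in MM134, members and MYC stood in a similar order. The median member in single libraries lay -0.03 to 0.04 from the siNT mean in siNT (MYC 15.3 ± 2.51 CPM), 0.07 to 0.16 in siER_E2 (17.8 ± 1.00), 0.38 to 0.44 in siFOXA1_E2 (57.9 ± 0.739), 0.40 to 0.44 in siMDC1_E2 (65.7 ± 1.37) and 0.67 to 0.71 in siNT_E2 (99.3 ± 1.23). Ranges of the members did not overlap between these groups except for siFOXA1_E2 and siMDC1_E2. In HCC1428 the median member lay -0.02 to 0.03 in siNT (MYC 56.2 ± 2.46 CPM), 0.00 to 0.05 in siER_E2 (39.3 ± 0.913), 0.21 to 0.24 in siFOXA1_E2 (64.9 ± 1.13), 0.22 to 0.26 in siMDC1_E2 (62.8 ± 2.28) and 0.23 to 0.31 in siNT_E2 (56.4 ± 3.62). There siER_E2 had less MYC than siNT with members at about the same level, and siNT_E2 had the members above siNT with MYC at the siNT level. The range of the members in siNT_E2 overlapped those in siFOXA1_E2 and siMDC1_E2. In MM330 the median member lay 0.01 to 0.04 in siNT_E2 (MYC 20.9 ± 1.47 CPM), 0.01 to 0.10 in siER_E2 (0.307 ± 0.196), -0.18 to -0.02 in siFOXA1_E2 (16 ± 1.83) and 0.06 to 0.12 in siMDC1_E2 (24.1 ± 1.88).

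Relatives and the partner of MYC were measured in the same fits. MYCN, a paralog of MYC, rose with E2 by 0.38 ± 0.13 in HCC1428, but not without siNT replicate 3 (adjusted p = 0.069 by edgeR), siNT_E2 replicate 2 (0.066) or the libraries of higher pseudogene share (0.063), and it fell by 0.64 (SE 0.10) in MM134, and its change of -0.66 ± 0.25 in MM330 did not pass (adjusted p = 0.061 by edgeR). MYCL, another paralog, fell by 1.66 (SE 0.14) in MM134 and rose there with each knockdown, by 0.97 ± 0.15 to 1.68 ± 0.14. MAX, the shared partner, had changes of -0.11 ± 0.04, 0.09 ± 0.04 and -0.08 ± 0.05 with E2 in HCC1428, MM134 and MM330, of which the first passed (adjusted p = 0.013 by edgeR), though not without siNT replicate 2 (0.053) or with no filter on low counts (0.16). MXD4, which pairs with MAX and represses MYC target genes, fell with E2 in each line, with changes of -1.11 ± 0.05 (HCC1428, adjusted p = 3.6e-13 by edgeR), -1.095 ± 0.039 (MM134, 4.5e-16) and -0.71 ± 0.06 (MM330, 1.8e-07). It rose with each knockdown in each line, by 0.31 ± 0.06 to 1.24 ± 0.04. MXD3, of the same family, rose with E2 by 1.82 ± 0.07 in HCC1428, where MYC did not pass (adjusted p for MXD3 6.1e-14 by edgeR). Its change was 0.64 ± 0.10 in MM330 (0.00015) and -0.18 in MM134 (0.0012).

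Members with an E-box in the promoter window had a median E2 change of 0.73 in MM134 (n = 17) and those without 0.58 (n = 24). In HCC1428 these medians were 0.29 and 0.23, and in MM330 0.07 and 0.00. No test was made of these differences.

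Other genes of ribosome production were taken from a list of 113. With E2, 92 rose and 4 fell in MM134, 55 and 17 in HCC1428 and 14 and 5 in MM330, with medians of 0.37, 0.14 and 0.02. As shares of the list, 81.4%, 48.7% and 12.4% rose, against 27.2%, 29.1% and 13.7% of all genes, and 3.54%, 15% and 4.42% fell, against 27.2%, 25.7% and 12.6%. In MM330 both shares of the list were thus below those of all genes. With ESR1 knockdown 92 fell and 3 rose in MM134, 65 and 7 in HCC1428 and 23 and 10 in MM330. The falls made up 81.4%, 57.5% and 20.4% of the list, against 27.9%, 28.7% and 17.4% of all genes. With FOXA1 knockdown 73, 55 and 42 fell and 11, 18 and 8 rose in MM134, HCC1428 and MM330, and with MDC1 knockdown 66, 26 and 11 fell and 10, 4 and 12 rose. The falls with FOXA1 knockdown made up 64.6%, 48.7% and 37.2% of the list (28.5%, 29.5% and 24.6% of all genes), and those with MDC1 knockdown 58.4%, 23.0% and 9.73% (25.0%, 15.9% and 10.4%). TCOF1 (treacle), which couples polymerase I to rRNA processing, rose with E2 by 1.08 ± 0.05 in HCC1428, 0.76 ± 0.03 in MM134 and 0.32 ± 0.05 in MM330, and fell with FOXA1 knockdown by 1.22, 1.03 and 1.13 (SE 0.05, 0.03 and 0.06). CD3EAP, a polymerase I subunit, rose with E2 by 1.25 ± 0.05 in MM134 and 0.80 ± 0.04 in HCC1428. NOP53, a large subunit factor, fell by 0.74 in HCC1428 (SE 0.04). DDX18, a helicase of the large subunit, fell with MDC1 knockdown by 0.83 in MM134, 0.38 in HCC1428 and 0.46 in MM330 (SE 0.03, 0.05 and 0.07).

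The 79 genes of cytosolic ribosomal proteins, the parts that these factors assemble, were counted in the same way. With E2, 60 rose and 0 fell in MM134 (median 0.22), 20 rose and 17 fell in HCC1428 (median 0.03), and 4 rose and 2 fell in MM330 (median -0.02). The rises made up 75.9% of the 79 in MM134, 25.3% in HCC1428 and 5.06% in MM330, against 27.2%, 29.1% and 13.7% of all genes. The falls made up 21.5% in HCC1428 and 2.53% in MM330, against 25.7% and 12.6%, so that only MM134 had a share of rises above that of all genes. RPS2 rose by 0.61 ± 0.05 in MM134, 0.42 ± 0.04 in HCC1428 and 0.26 ± 0.08 in MM330. The last did not pass without siNT replicate 2 (adjusted p = 0.11 by edgeR), siNT_E2 replicate 2 (0.065) or siNT_E2 replicate 3 (0.092). RPS2 did not have the smallest p of the 79 in any line. That gene was RPL8 in MM134, which rose (0.55 ± 0.04). It was RPS6 in HCC1428 (-0.32 ± 0.03) and RPLP1 in MM330 (-0.38 ± 0.07), and both fell. With FOXA1 knockdown in HCC1428, 36 of the 79 rose and 9 fell (45.6% and 11.4%, against 24.1% and 29.5% of all genes, median 0.11), where 22 of the 48 assembly genes fell and 6 rose. Most called genes fell with ESR1 knockdown, 34 with 5 higher in HCC1428 (43% lower, against 28.7% of all genes) and 41 with 8 higher in MM134 (51.9%, against 27.9%). With MDC1 knockdown in HCC1428, 30 fell and 0 rose (38% lower, against 15.9%). Counts for the other knockdown comparisons are not given here. Ribosomal protein genes have many processed pseudogenes, and the 11 libraries with a higher pseudogene share were unevenly spread over groups.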

How the data were processed

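Gene counts of 45 polyA libraries (stranded kit, paired reads) were analysed as deposited by the authors, who gave whole-number counts per gene symbol, not normalized. STAR 2.6.0a, the GRCh38/hg38 genome and limma are named, without further detail, in the submitters' processing notes; not given in the sources used here are the counting tool, its strand setting and its treatment of reads with several matches. The table held 57353 rows, of which 16974 had no count and 27 carried symbols turned into dates (0.195% of counts). Gene models for lengths and overlaps came from GENCODE 29, where 56562 symbols were found, and promoter sequences from RefSeq on GRCh38.p14.

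Within each line, 15 libraries were fitted together with edgeR 4.0.16 in R 4.3.3 (filterByExpr by group, TMM scaling, quasi-likelihood F test), with Benjamini-Hochberg adjustment over all genes of a comparison and a threshold of 0.05. Standard errors were taken from the estimate and its F. Differences between lines came from a fit of 45 libraries. Levels are CPM with TMM factors over all 45. A test on simulated data of the MM134 estradiol comparison (17384 genes) called 78% of genes changed by 0.4 on the log2 scale and 100% of those changed by 1, and 7.29% of its calls were false. It changed 100 genes by each amount and left the rest unchanged, whereas 54.4% of genes were called in the measured comparison. These rates therefore need not hold for the measured data. Pairs of libraries within a group differed beyond counting noise in all 45 pairs (chi-square per degree of freedom 1.96 to 18). Alternatives were RLE scaling, no filter, a replicate block, DESeq2 1.42.0, limma-voom (limma 3.58.1), the compared groups only, the 34 libraries of lower pseudogene share, and leaving out each library.

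The members, their role groups, the motifs and the lists of other genes were chosen with earlier results of these data known. Any of the 48 members could be named; by rule the text took fixed representatives of each role, the 3 highest and 3 lowest called members per comparison, members against the majority, MYC with its relatives, and up to 3 genes of each other list by smallest p. All comparisons with siNT_E2 in a line share its 3 libraries, so the knockdown and estradiol effects are not independent.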

Additional observations from a re-analysis of the deposited data

Results flagged for a closer look

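Differences between lines in the response of the 48 members were tested directly (edgeR, adjusted over all genes). For estradiol, 36 members differed between MM134 and HCC1428, 27 between MM330 and HCC1428 and 46 between MM134 and MM330 (26.5%, 28.3% and 26.2% of all genes). For ESR1 knockdown the numbers were 29, 27 and 42 (24.5%, 25.3% and 25.4%), for FOXA1 knockdown 22, 11 and 16 (30.5%, 22.2% and 29.1%), and for MDC1 knockdown 22, 11 and 33 (18.6%, 13.8% and 20.8%). Of these, 2 FOXA1 counts were near the share of all genes. Between MM330 and HCC1428, 10.4% of members were higher and 12.5% lower, against 11.8% and 10.4% of all genes. Between MM134 and MM330, 33.3% of members were called, against 29.1%. The estradiol response of MYC differed by 2.69 between MM134 and HCC1428, 5.44 between MM330 and HCC1428 and -2.75 between MM134 and MM330 on the log2 scale. MM330 had the largest log2 change of MYC of the 3 lines and the smallest median response of the members. That MYC change began near the floor, at 0.476 CPM in siNT (11 to 17 counts a library), and reached 20.9 CPM in siNT_E2. MYC went from 15.3 to 99.3 CPM in MM134 and stood at 56.2 and 56.4 CPM in HCC1428.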

How the results depend on the processing

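Of 642 recomputed counts of called members, 606 stayed within 1.5 times the reported count, and of 39803 recomputed values of single genes 1941 crossed the threshold and 0 reversed. MM134 counts for estradiol and for ESR1, FOXA1 and MDC1 knockdown lay at 48, 45 to 47, 37 to 39 and 34 to 39 under every alternative. With the lower pseudogene share libraries alone, HCC1428 siER_E2 against siNT gave 5 members, and in MM330 siER_E2 gave 7 against siNT_E2 and 4 against siNT, while siMDC1_E2 gave 8 against siNT_E2, 13 against siNT and 7 against siER_E2; siNT and siER_E2 of HCC1428 then had 1 library each, assumed to vary like the other groups. The MDC1 difference between MM330 and HCC1428 gave 6 in those libraries, 6 with no filter and 7 with a replicate block. HCC1428 siER_E2 against siNT gave 6 in a fit of these groups only, and the FOXA1 difference between MM134 and MM330 gave 10 with no filter. Leaving out single libraries gave 6 to 9 for HCC1428 siER_E2 against siNT, 3 to 8 for estradiol in MM330, 4 to 6 for MM330 siER_E2 against siNT, 11 to 13 for MM330 siMDC1_E2 against siER_E2, 7 to 11 for the FOXA1 and 4 to 8 for the MDC1 difference between MM330 and HCC1428. Fewer libraries were fitted in these cases, except with no filter or a replicate block, where all libraries were kept. The cause was not tested.

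Correlations gave no clear sign that replicate numbers pair the samples, but with 3 libraries a group they cannot exclude it. Deviations of same-numbered libraries correlated at -0.269 to 0.287 in HCC1428, -0.308 to 0.167 in MM134 and -0.269 to 0.448 in MM330. Medians were -0.001, 0.004 and -0.01, and 4 of 26, 1 of 30 and 8 of 30 pairs were over 0.1. In the same lines 5, 3 and 6 of 15 libraries correlated best with their own number. The replicate block moved no other count by over 1.5 times. With it MYC missed in HCC1428 for FOXA1 knockdown (adjusted p = 0.075) and MDC1 knockdown (0.2). At these depths NOP2, at 0.522 to 3.27 CPM, had the largest standard error of the 48 members in each of the 12 comparisons of siNT_E2 with another group of its line.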
